A study of Mus musculus with 2 samples.

Results

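Transcripts of 10 genes were followed here in vesicles released by murine cytotoxic T lymphocytes (CTL), which are T cells specialised in killing other cells. They were 6 annexins (Anxa1, Anxa2, Anxa4, Anxa5, Anxa6 and Anxa7) and 4 S100 genes (S100a4, S100a6, S100a10 and S100a11), taken by symbol from the 19316 named genes of the array. Every member had 1 probe, so 10 of 10 were found and the value of a gene is the value of its probe. Of them, 9 had a value on both arrays, and the cell of Anxa4 was empty on both.

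Culture medium was collected from CTL grown for 7 days, concentrated and freed of protein by ultrafiltration at 750 kDa, and passed over an anion exchange column (DEAE). The more negative the surface of a particle, the more salt is needed to release it from this positively charged resin. The 2 groups are the vesicles eluted with 0.3 M NaCl and the vesicles eluted with 0.5 M NaCl, both from CTL culture medium, and total RNA of each was amplified, labelled with Cy5 and hybridised to 1 array. With 1 array per fraction there is no replicate and no test, and every difference describes this pair of arrays. The comparison asks whether vesicles of different surface charge carry these messenger RNAs at different levels. Mouse strain, age, stimulus and how many preparations were pooled are not given by the sources used here.

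Annexins are cytosolic proteins that bind acidic phospholipids, above all phosphatidylserine, when calcium rises, and they serve in membrane repair, membrane fusion and vesicle traffic. S100 proteins are small dimeric calcium sensors with EF-hand calcium-binding loops, and several of them dock onto the N-terminal tail of an annexin. The best-known complex joins Anxa2 to S100a10, which holds its binding-competent shape without calcium and links pairs of Anxa2 molecules so that the complex can bridge membranes. The array measured messenger RNA, not these proteins.

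The 4 S100 members and Anxa2 were all brighter at 0.5 M than at 0.3 M, and the other annexins were nearly level or dimmer there. After centring, the S100 members were 2.31-fold to 2.57-fold higher at 0.5 M and Anxa2 was 2.14-fold higher. Anxa6 differed by 0.38 on the log2 scale, whereas Anxa7 (-0.43) lay on the other side of 0. So did Anxa5 (-0.36) and Anxa1 (-1.08), but both were too dim for their differences to be read. Differences are log2 intensities at 0.5 M minus 0.3 M after each array's median over the 16154 probes with a value on both arrays was subtracted. The shift removed was -0.30. The size of the S100 and Anxa2 differences depends on that step. Their sign was the same as deposited and with quantile normalization, loess, 75th percentile centring and a pseudocount of 16. The settings that change only the filter or the probe choice cannot alter the difference of a gene with 1 probe.

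**Figure D1:**
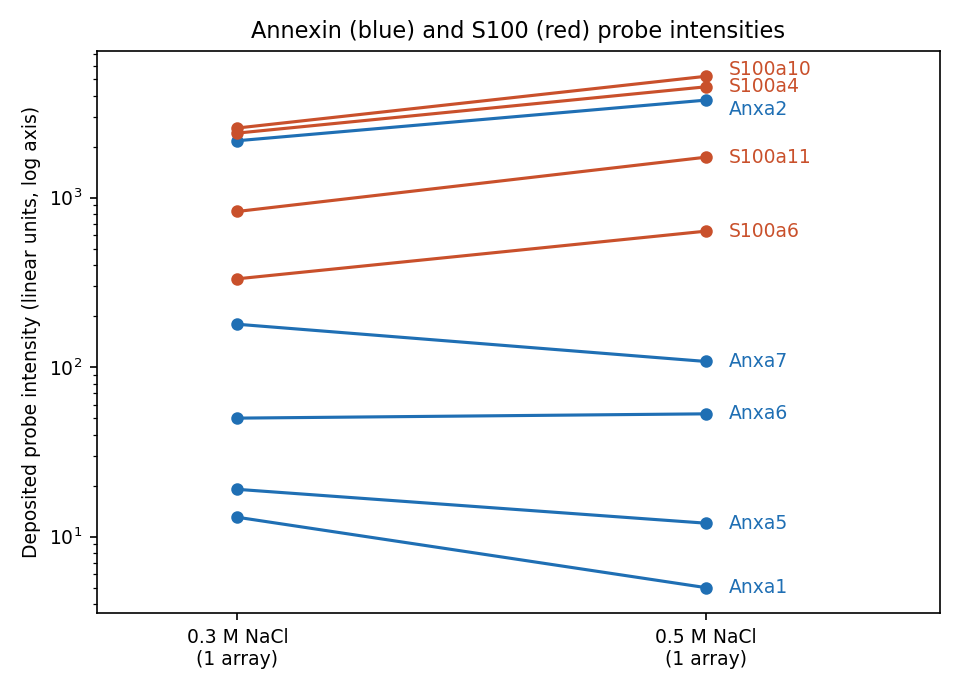
Deposited probe intensity (log axis) of the 9 members with a value on both arrays, at 0.3 M and 0.5 M NaCl, with 1 point per array joined by a line for each gene, annexins in blue and S100 genes in red. S100a10, S100a4, Anxa2, S100a11 and S100a6 go up from left to right, Anxa6 is nearly level (50 and 53), and Anxa7, Anxa5 and Anxa1 go down; heights of different probes are not comparable with each other.

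S100a10, known as p11, the partner of Anxa2, had an intensity of 2576 at 0.3 M and 5199 at 0.5 M. This is a centred difference of 1.31, or 2.48-fold. Anxa2 itself, a membrane-binding annexin that also acts as a cell-surface docking protein for plasminogen, had 2167 at 0.3 M and 3761 at 0.5 M. Its centred difference was 1.09. Both partners of the complex were thus brighter on the 0.5 M array. The difference of S100a10 exceeded that of Anxa2 by 0.22 with centring and with the values as deposited, by 0.20 with quantile normalization and by 0.19 with loess. For scale, the SD between probes of the same gene was 0.55 over the 358 genes that had several probes and were bright enough to be counted. For 2 genes with 1 probe each that corresponds to an SD of 0.78 for the gap between them. The gap of 0.22 was smaller than this spread, so these probes do not separate the partners in how they differed between fractions. That spread leaves out the variation between preparations.

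S100a11, which binds the N-terminal tail of Anxa1 and also Anxa2, had the largest difference among the members, with 829 at 0.3 M and 1732 at 0.5 M (1.36). S100a6, known as calcyclin, had 332 and 634 (1.23). S100a4, which binds non-muscle myosin and is often found in effector and memory T cells, had 2404 and 4507 (1.21). The differences of the 4 S100 members lay between 1.21 and 1.36, with an SD of 0.07 among them. That SD was 0.09 with quantile normalization and 0.15 with loess. These are narrower than the SD of 0.55 between probes of the same gene, which was 0.46 over 11 genes in the brightest 10%. Their median was 1.27 with centring, 0.97 as deposited, 0.98 with quantile normalization and 0.86 with loess.

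Promoters are shown for the members that were brighter at 0.5 M together, as far as the RefSeq table (GRCm38.p6) lists them. The table held 8 of the 10 members and lacked S100a10 and Anxa6. Each line gives the 160 bases before the transcription start, 5′ to 3′ along the gene's strand, and capitals mark matches to the motifs searched on both strands.
Anxa2, chr9:69453523-69453682, plus strand: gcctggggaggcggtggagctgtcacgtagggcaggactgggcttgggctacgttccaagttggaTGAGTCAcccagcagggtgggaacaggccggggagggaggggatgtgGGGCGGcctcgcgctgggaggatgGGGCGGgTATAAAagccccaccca
S100a4, chr3:90603610-90603769, plus strand: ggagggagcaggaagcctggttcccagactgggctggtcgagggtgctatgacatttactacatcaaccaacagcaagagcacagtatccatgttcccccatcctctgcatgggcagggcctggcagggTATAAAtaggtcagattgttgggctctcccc
S100a6, chr3:90612734-90612893, plus strand: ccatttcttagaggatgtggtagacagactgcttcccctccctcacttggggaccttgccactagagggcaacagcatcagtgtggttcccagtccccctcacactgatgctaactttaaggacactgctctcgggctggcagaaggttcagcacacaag
S100a11, chr3:93520336-93520495, plus strand: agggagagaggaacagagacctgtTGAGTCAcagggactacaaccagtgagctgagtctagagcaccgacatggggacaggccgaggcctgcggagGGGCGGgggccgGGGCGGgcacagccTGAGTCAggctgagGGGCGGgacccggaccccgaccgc

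The 250 bases before each start were searched for 4 motifs. The TATA box was searched as the letters TATAAA, the CCAAT box by the letters of its name, the GC box as the letters GGGCGG, and the AP-1 motif as the letters TGANTCA. No matches overlapped in these 4 promoters. Of the 32851 promoter windows in the table, 12.4% held the TATA box, 33.8% the CCAAT box, 32.7% the GC box and 6.75% the AP-1 motif. The Anxa2 window held a TATA box 17 bases before the start, 3 GC boxes and 1 AP-1 motif, 95 bases before the start. The S100a11 window held 3 GC boxes and 2 AP-1 motifs, at 136 and 38 bases. The S100a4 window held a TATA box 31 bases before the start and none of the others, and the S100a6 window only a CCAAT box, 228 bases before the start and outside the stretch shown. Anxa2 and S100a11 thus shared the GC box and the AP-1 motif, and Anxa2 and S100a4 shared the TATA box. No motif of the 4 was found in all 4 of these windows. The GC box and the TATA box also occurred in members that lay on the other side of 0. The Anxa7 windows held 4 GC boxes and 1 GC box, and the Anxa1 window held a TATA box 32 bases before the start. Anxa1 was, however, too dim for its difference to be read. The Anxa4 and Anxa5 windows held none of the 4 motifs, and the AP-1 motif was absent from all these other annexin windows. A link between motifs and differences was not tested. GC content was 62.4% for Anxa2, 60.0% for S100a11, 57.2% for S100a4 and 50.0% for S100a6, against a median of 52.4% over all windows.

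The remaining annexins were dimmer. Anxa7, an annexin known as synexin that promotes membrane fusion, had 179 at 0.3 M and 108 at 0.5 M (-0.43). Anxa6, which carries a duplicated annexin core, had 50 and 53. Its difference was 0.38 with centring, 0.35 with quantile normalization and 0.36 with loess, but 0.08 as deposited, so it rests on scaling the arrays. Anxa5, the annexin used as a probe for exposed phosphatidylserine, had 19 and 12 (-0.36). Anxa1, a glucocorticoid-induced annexin with anti-inflammatory activity, had 13 and 5, and the second of these is the lowest intensity on the 0.5 M array. Its difference of -1.08 shrank to -0.27 with a pseudocount of 16. Anxa5 and Anxa1 are thus too dim for their differences to be read, and Anxa4, a calcium-dependent membrane binder of epithelia, had no value to read.

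Counting was limited to genes that reached, on either array, the median of the 13735 measured genes, and 7446 genes were kept. The filter kept 7 of the 9 members with values, leaving out Anxa1 and Anxa5, and all 7 met the limit on both arrays. At least 2-fold higher at 0.5 M were 5 of these 7, namely the 4 S100 members and Anxa2, against 5.24% of all kept genes. At least 2-fold lower were 0 of 7, against 2.35% of kept genes. Among all 9 members with values, 5 were at least 2-fold higher and 1, the dim Anxa1, at least 2-fold lower, against 5.10% and 2.77% of all measured genes. The median difference was 1.21 over the 7 kept members and 1.09 over the 9, against 0.08 over all kept genes.

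Most members that differed were bright, and with centring bright probes as a group were higher at 0.5 M. S100a4, S100a10, S100a11 and Anxa2 lay in the brightest 10% of kept genes by mean level, where the median difference was 0.46 with 13.8% of genes at least 2-fold higher and 4.57% at least 2-fold lower. That balance rests on the scaling: the median of this set was 0.16 as deposited (2.96% higher, 11.6% lower), 0.12 with quantile normalization (2.12% higher, 12.3% lower) and 0.00 with loess. Within that set of 744 genes, S100a11 ranked 16 from the top by difference, S100a10 ranked 22, S100a4 ranked 38 and Anxa2 ranked 64. S100a6 lay in the next 10%, where the median difference was 0.23, and ranked 16 of 745. Anxa6 ranked 158 of 745 and Anxa7 641 of 744 among genes of their own level. The S100 members were therefore near the top among genes of like brightness, and Anxa2 was above 91.4% of them. These ranks describe single probes and are not tests.

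**Figure D2:**
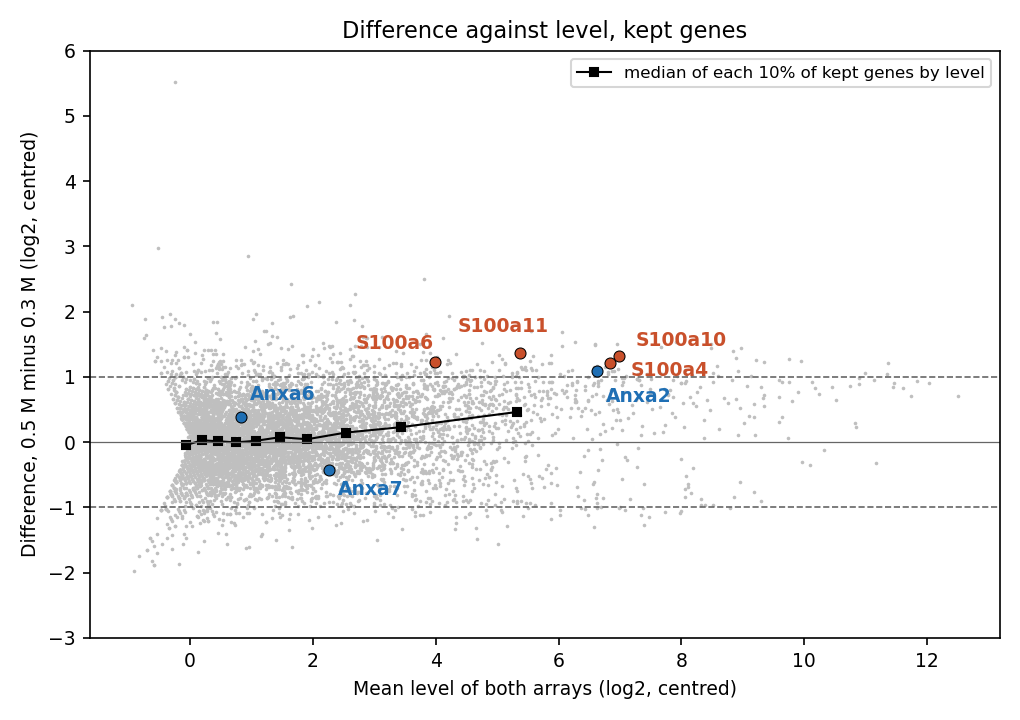
Difference between fractions (0.5 M minus 0.3 M, log2, centred) against mean level of both arrays (log2, centred) for the 7446 kept genes, 1 grey point per gene, with the 7 kept members labelled. Dashed lines mark 2-fold and black squares the median of each 10% of genes by level, which climbs from -0.04 to 0.46; the S100 members and Anxa2 lie above the upper dashed line and above the black line, Anxa6 lies above the black line and Anxa7 below it.

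The number of members past 2-fold depended on the scaling. With the values as deposited, S100a11 (1.06) and S100a10 (1.01) passed, so the count was 2, against 1.63% of kept genes higher and 7.78% lower. With quantile normalization S100a11 (1.03) and S100a6 (1.03) passed, against 3.32% higher and 3.82% lower. With loess, which removes the trend of difference on level, 0 passed, against 3.16% higher and 3.93% lower. With a pseudocount of 16 the count was 4, since Anxa2 lay at 0.98, against 2.11% of kept genes higher and 1.31% lower. With loess the members lay at 0.97 (S100a6), 0.96 (S100a11), 0.76 (S100a10), 0.67 (S100a4) and 0.57 (Anxa2). Among the brightest 10% of genes, 0.806% were at least 2-fold higher after loess and 104 of 744 at least 2-fold lower, and S100a11 ranked 13 of 744 there, S100a10 35, S100a4 62 and Anxa2 91. The median of all kept genes moved from 0.08 with centring to -0.22 as deposited, and the differences are best read relative to it.

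**Figure D3:**
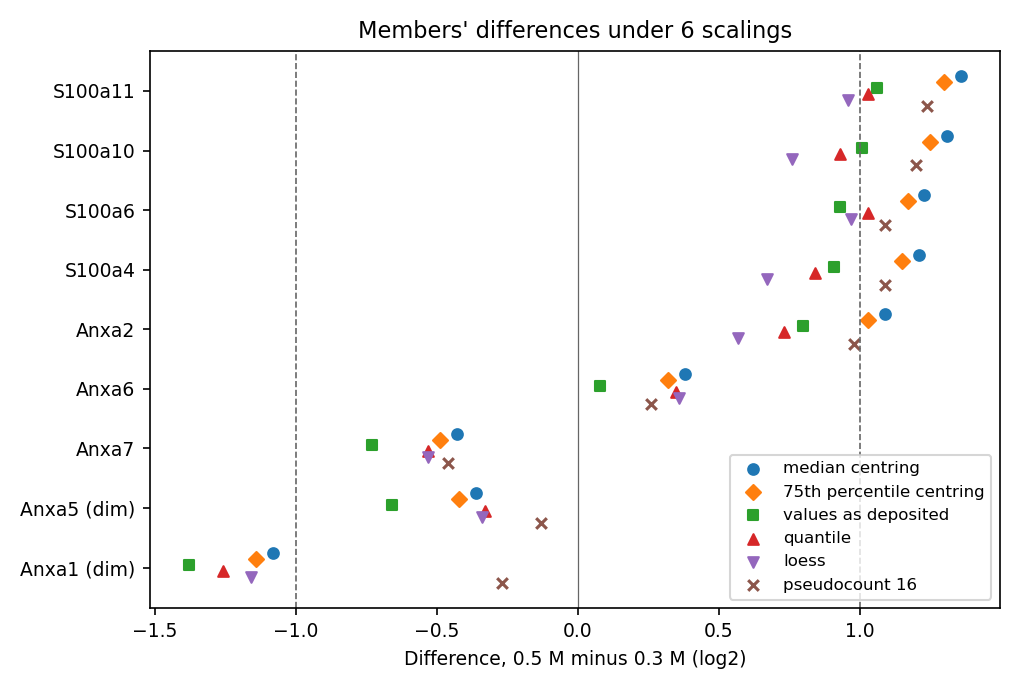
Difference between fractions (0.5 M minus 0.3 M, log2) of each of the 9 members with values under 6 scalings, 1 symbol per scaling, with dashed lines at 2-fold. The 4 S100 members and Anxa2 stay to the right of 0 under every scaling shown but cross the 2-fold line under some, Anxa7, Anxa5 and Anxa1 stay to the left, and Anxa1 moves from -1.38 as deposited to -0.27 with the pseudocount.

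Other S100 genes gave a mixed picture. Of 12 in the list, 10 had values on both arrays and 6 were kept, with a median of 0.18. At least 2-fold higher was 1 of the 6 and lower were 0, beside 5.24% and 2.35% of all kept genes. As deposited, 0 were at least 2-fold higher, beside 1.63% of all kept genes, and the median was -0.12. S100a1, a calcium sensor best known from heart muscle, had 118 at 0.3 M and 208 at 0.5 M (1.12, but 0.82 as deposited). The difference of S100a1 was 0.93 with a pseudocount of 16 and 1.01 with loess. S100a1 was thus at least 2-fold higher with loess, where 0 members were. S100a13, which takes part in the export of growth factors without a signal peptide, had 274 and 380 (0.77). S100b, a glial S100 protein, had 200 and 141 (-0.20), and S100a8, a neutrophil protein, had 41 and 40 (0.26, but -0.04 as deposited). S100a9, the partner of S100a8, had 4 at 0.3 M and an empty cell at 0.5 M. Most S100 genes lie side by side on chromosome 3, and neighbours there had differences of unlike size. S100a5, picked out after its value was seen because it sits between S100a4 and S100a6, had 41 and 35 (0.07). S100a11 and S100a10 are adjacent to each other but lie apart from that row, with the coding gene Tchhl1 directly before S100a11.

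The annexins outside the member list were dim or lower at 0.5 M. Anxa11, which tethers RNA granules to lysosomes, had 106 at 0.3 M and 80 at 0.5 M (-0.11), and Anxa3 had 47 and 33 (-0.21). These were the 2 kept genes of 6, with 0 past 2-fold, beside 5.24% higher and 2.35% lower among all kept genes. Anxa10 (9 and 7) and Anxa13 (6 and 6) were below the filter. Anxa8 had 5 at 0.3 M and no value at 0.5 M, and Anxa9 had no value on either array. Among the annexins bright enough to read, Anxa2 thus lay at 1.09 and Anxa6, Anxa7, Anxa11 and Anxa3 between -0.43 and 0.38.

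Partners of annexins and S100 proteins lay on both sides of 0. Of 21 listed, 20 were on the array, 17 had values and 9 were kept, with 1 at least 2-fold higher, 0 lower and a median of 0.37, beside the 5.24% higher and 2.35% lower of all kept genes. As deposited, 0 were higher and 2 lower (Ahnak and Cacybp), beside 1.63% and 7.78% of all kept genes, and the median was 0.07. With the filter on both arrays the median was 0.15 over 8 genes. Sri, the EF-hand protein sorcin that binds Anxa7, had 274 at 0.3 M and 475 at 0.5 M (1.09, but 0.79 as deposited), on the other side of 0 from Anxa7. Kcnk3, a potassium channel that S100a10 binds, had 27 and 38 (0.79), and was kept through the 0.5 M array alone, so it had to differ in that direction. Ahnak, the giant scaffold that docks on the Anxa2 and S100a10 complex, had 120 and 55 (-0.83), so its transcript did not share the direction of the Anxa2 and S100a10 transcripts. Cacybp, named for its binding of S100a6, had 239 and 118 (-0.72), again opposite to the S100a6 transcript. The signs of Sri, Ahnak and Cacybp held under each scaling tried.

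Other EF-hand proteins had 0 of 6 kept genes past 2-fold in either direction and a median of 0.38. Among all kept genes 5.24% were at least 2-fold higher and 2.35% lower. Calm3, a calmodulin gene, had 432 at 0.3 M and 607 at 0.5 M (0.79), Efhd2 had 217 and 243 (0.46) and Calm2 had 189 and 201 (0.39). Chp1, a calcineurin-like protein, had 41 and 22 (-0.60) but was kept through the 0.3 M array alone, and with the filter on both arrays the 5 remaining genes lay above 0 (0.18 or more). As deposited the median was 0.08. Genes of phosphatidylserine, the lipid that annexins bind, were mostly dim. Of the 11 that expose it or hold it inside, 1 was kept, the flippase subunit Tmem30a, with 476 and 446 (0.21, but -0.09 as deposited and -0.05 with loess). Of the 10 that recognise it, 3 were kept, with a median of -0.25. Past 2-fold were 0 of them, beside the same 5.24% and 2.35% of all kept genes. The receptor Axl had 92 and 63 (-0.25), the bridging ligand Pros1 33 and 22 (-0.29) and the receptor Adgrb1 52 and 40 (-0.08). Pros1 was kept through the 0.3 M array alone, and with the filter on both arrays the median was -0.16 over 2 genes.

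**Figure D4:**
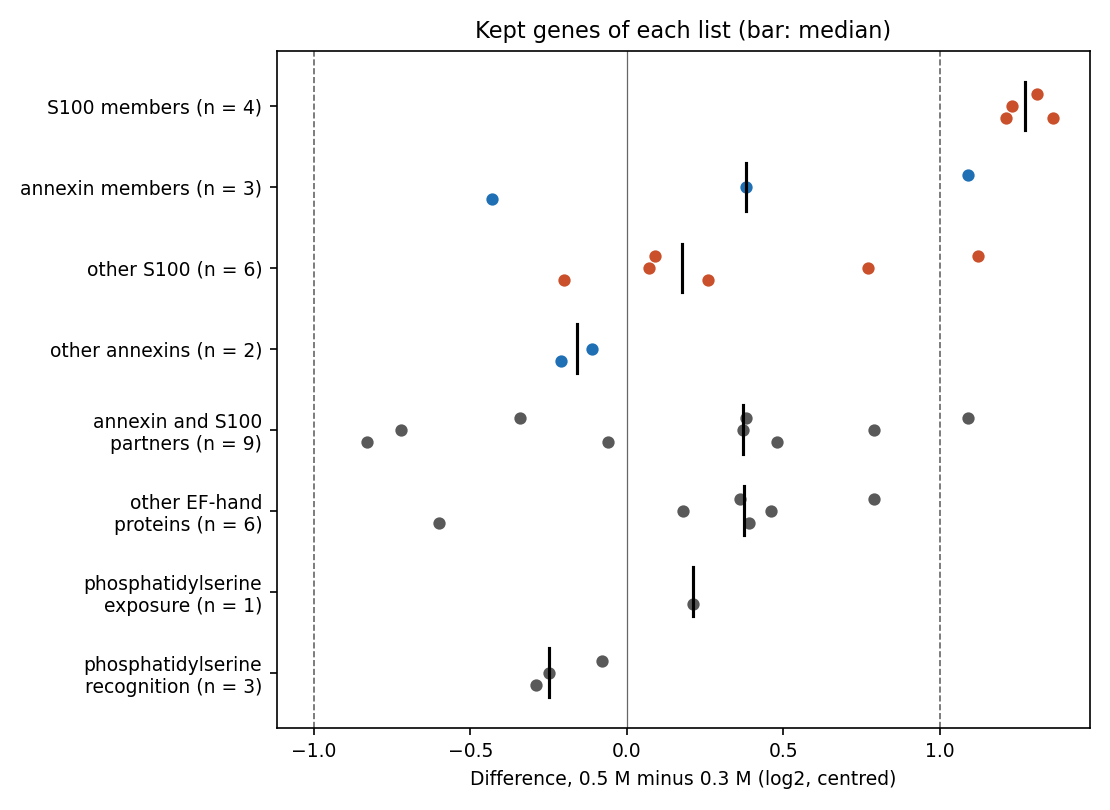
Difference between fractions (0.5 M minus 0.3 M, log2, centred) of the kept genes in the lists of members, related families and partners (marker lists are not drawn), 1 point per gene, spread vertically for legibility, with a black bar at the median and dashed lines at 2-fold. The 4 S100 members lie at 1.21 to 1.36, Anxa2, S100a1 and Sri are the other points drawn past 2-fold, and the rest of the points drawn lie between the dashed lines.

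Markers of the cells that could have released the vesicles were read on the same arrays. Several CTL genes were present, with Cd8a (3677 and 2463, -0.28), Cd8b1 (333 and 496, 0.87), Cd3g (105 and 162, 0.93) and the granzyme Gzmb (2493 and 2838, 0.49, but -0.03 with loess). Cd3d (849 and 990) and Cd2 (270 and 361) also had readable values. Prf1 (33 and 26) was kept through the 0.3 M array alone, and Cd3e (12 and 14) was below the filter. Ptprc had 13 at 0.3 M and an empty cell at 0.5 M, and Lck had no probe. The summed intensity of the 8 CTL markers with values, taken without centring and led by Cd8a and Gzmb, was 7772 at 0.3 M and 7350 at 0.5 M. With centring, 5 of the 7 kept CTL markers lay above 0. Their median was 0.52, but 0.22 as deposited and 0.15 with loess. Fibroblast and epithelial markers, of cells rich in annexins and S100 proteins, were dim, with 6 of 9 measured on both arrays and sums of 213 and 171, with Krt18 at 63 and 44, and Pdgfra was empty on both. Myeloid markers had 7 of 11 measured and sums of 218 and 232, with Cd68 at 50 and 53 and Itgam and Adgre1 empty on both. B cell markers, 5 of 6 measured, had sums of 381 and 549, and Cd79b went from 94 to 328 (2.10), in the same direction as the S100 members. Blnk went from 26 to 63 (1.58) but was kept through the 0.5 M array alone, so it had to differ in that direction. Cd22 went the other way, from 225 to 126 (-0.54), and Ms4a1 (21 and 21) and Cd79a (15 and 11) were below the filter. Red cell markers had 4 of 6 measured and sums of 17143 and 7924. The globin Hba-a2, which led these sums, had 12001 and 5681 (-0.78), in the opposite direction to the S100 members. With centring 3 of the 4 lay below 0. Alas2 (28 and 28) lay at 0.30, but at 0.00 as deposited, and was kept through the 0.5 M array alone. The part of B cell and red cell material in the S100 and Anxa2 differences was not tested.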

How the data were processed

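The members and gene lists were chosen with earlier results of these data known. The authors deposited whole-number probe intensities on a linear scale. How they corrected background, normalized the arrays and left cells empty is not given in the sources used here. Per the labels, total RNA was amplified as amino allyl RNA and coupled to Cy5. Of 23473 probes, 80.8% had a value at 0.3 M and 71.3% at 0.5 M, and empty cells were left as missing. Symbols came from the array annotation, of which 20556 of 20690 were matched by Entrez identifier to RefSeq (GRCm38.p6). The array comes with no named genome build.

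Intensities were log2-transformed without a pseudocount and centred on each array's median over shared probes (32 and 26). Several probes of a gene were averaged. A difference of at least 2-fold was counted, with no test. The alternatives were no centring, quantile normalization, loess (span 0.3), centring on the 75th percentile, a pseudocount of 16, no filter on dim genes, the filter on both arrays, and the brightest probe of a gene. All members are named, along with up to 4 kept genes of each other list with the largest absolute difference, each annexin with a value, and fixed markers. The steps were tested on simulated data. Python 3.11.15 with pandas 2.3.3 and statsmodels 0.14.6 was used. Precision is limited by having 1 array per fraction.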

Additional observations from a re-analysis of the deposited data

How the results depend on the processing

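The count of members at least 2-fold higher at 0.5 M was 5 with centring, 2 with the values as deposited, 2 with quantile normalization, 0 with loess and 4 with a pseudocount, where Anxa2 (0.98) was no longer past 2-fold and no annexin was. The count of members at least 2-fold lower was 0, and 1 with no filter on dim genes, which lets in Anxa1. The median of the kept members went from 1.21 to 0.91 as deposited, 0.84 with quantile normalization and 0.67 with loess, and that of the S100 members from 1.27 to 0.97, 0.98 and 0.86. The annexin median was 0.38 over 3 kept genes and -0.36 over 5 with no filter, since the filter leaves out Anxa1 and Anxa5. The signs of all 9 members' differences were the same in the 8 alternatives. Over all 7446 kept genes, 390 (5.24%) were at least 2-fold higher and 175 (2.35%) lower with centring, and 121 (1.63%) and 579 (7.78%) as deposited. With quantile normalization 250 (3.32%) and 288 (3.82%) of 7541 passed, and with loess 235 (3.16%) and 293 (3.93%) of 7448. A pseudocount gave 157 (2.11%) and 98 (1.31%) of 7456. With no filter there were 701 (5.10%) and 380 (2.77%) of 13735, and with the filter on both arrays 293 (4.66%) and 92 (1.46%) of 6290. Dim probes limit Anxa1, Anxa4 and Anxa5. Each member has 1 probe, so using the brightest probe changes none of them. No paired analysis was possible because each fraction has 1 array.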
